A study of Mus musculus with 6 samples.

Results

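Myostatin, the activins and their inhibitors form a branch of the TGF-beta family that was examined here gene by gene in mouse muscle. The genes were chosen by symbol: the ligand genes Mstn, Gdf11, Inhba and Inhbb, the receptor genes Acvr2a, Acvr2b and Acvr1b, and the antagonist genes Fst, Fstl3 and Wfikkn2. Of these 10 genes, 8 had a row of the array table annotated with that symbol alone, out of 14996 rows with 1 symbol and 23332 rows in all. Gdf11 and Inhbb were not analysed here. A gene with several rows was to be taken from the row with the highest mean over the arrays, but each of the 8 genes had 1 row, so no measured value decided a row. The genes themselves were proposed with earlier results of these data known.

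RNA came from the tibialis anterior, a fast muscle of the lower leg, of ICR mice (an outbred stock) at 16 weeks of age. Staining for acetylcholinesterase marked the neuromuscular junctions (NMJs), where motor axons meet muscle fibres, and 9973 of them were cut out by laser. The NMJ group has 3 arrays and the non-NMJ group, an equal area cut from the same fibres away from the junctions, has 3. No group carried a mutation or a drug treatment. How many mice were used, and which arrays share mice, is not stated in the labels. The p-values below measure the spread between arrays and are too small if arrays of 1 region share mice. A captured NMJ holds the fibre's synaptic part with any Schwann cells, axon endings and fibroblasts on it, so fewer cells of a type and less RNA per cell cannot be told apart.

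In this pathway a dimer of myostatin or activin binds a type II receptor, encoded by Acvr2a or Acvr2b, which recruits a type I receptor such as the product of Acvr1b. The activated type I receptor phosphorylates SMAD2 and SMAD3, which enter the nucleus with SMAD4 and regulate genes. Myostatin is made mainly by muscle fibres and restrains their growth, and animals without it have enlarged muscles. Follistatin and its relatives bind the ligands outside the cell and keep them from their receptors.

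The promoter windows of the genes that fell (Mstn, Acvr1b) and of the type II receptor genes are shown because these 4 genes carry the opposite changes described below. Each is the 250 bases before a transcription start in RefSeq on GRCm38.p6, plus strand. They lie at chr1:53061390-53061639 (Mstn), chr15:101173822-101174071 (Acvr1b), chr2:48813859-48814108 (Acvr2a) and chr9:119401928-119402177 (Acvr2b). Capitals mark CANNTG, the broad E-box motif, of which only some forms are sites of myogenic factors such as Myod1 and Myog.
Mstn: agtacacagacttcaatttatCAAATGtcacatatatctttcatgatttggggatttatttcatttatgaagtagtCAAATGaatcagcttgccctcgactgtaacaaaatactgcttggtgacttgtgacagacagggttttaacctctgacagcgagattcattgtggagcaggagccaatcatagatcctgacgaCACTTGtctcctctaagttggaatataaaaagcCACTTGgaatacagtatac
Acvr1b: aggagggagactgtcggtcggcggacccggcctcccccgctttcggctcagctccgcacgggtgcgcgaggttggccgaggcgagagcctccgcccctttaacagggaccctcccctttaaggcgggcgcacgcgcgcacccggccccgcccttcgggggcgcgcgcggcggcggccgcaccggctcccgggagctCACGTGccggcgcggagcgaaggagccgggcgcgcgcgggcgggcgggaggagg
Acvr2a: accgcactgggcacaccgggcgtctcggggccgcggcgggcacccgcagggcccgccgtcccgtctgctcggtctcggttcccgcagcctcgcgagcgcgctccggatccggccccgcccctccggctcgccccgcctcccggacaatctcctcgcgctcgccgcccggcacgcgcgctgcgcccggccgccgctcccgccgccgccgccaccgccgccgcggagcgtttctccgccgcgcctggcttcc
Acvr2b: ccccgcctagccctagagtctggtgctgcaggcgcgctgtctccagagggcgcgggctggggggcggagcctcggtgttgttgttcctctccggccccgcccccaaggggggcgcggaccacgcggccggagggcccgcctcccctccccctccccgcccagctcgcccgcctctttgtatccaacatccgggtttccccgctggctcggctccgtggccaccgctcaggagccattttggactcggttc
The Mstn window held 4 E-boxes, starting 229, 174, 52 and 19 bases before the start, and a TATAAA 29 bases before it. The Acvr1b window held 1 E-box, 54 bases before the start, and the Acvr2a and Acvr2b windows held 0. Base composition differed too: G and C made up 38.4% of the Mstn window, against 78.8%, 82% and 72.8% of the Acvr1b, Acvr2a and Acvr2b windows. Over both strands, 66.2% of the 32851 RefSeq windows of this length held CANNTG and 12.4% held TATAAA. The N-box CCGGAA, known from promoters active in synaptic nuclei, was in 12% of all windows and in 0 of the 7 windows found for the 8 measured genes. CAGAC, a sequence that SMAD proteins can bind, was in 42.2% of all windows and in 4 of the 7. CANNTG was in 4 of the 7 windows and TATAAA in 3 (Mstn, Inhba and Fstl3). The windows of Wfikkn2 and Fstl3, which were not called, held 4 and 3 E-boxes. The window of Inhba, which rose, held 0. The marked E-boxes overlapped none of the other motifs in the Mstn window. These matches describe letters in a window and say nothing of binding.

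Values are RMA values, which are log2 expression summaries of each row's probes, so a difference of 1 is a 2-fold change. Mstn was far lower at the junctions, Acvr1b was lower by a smaller factor, and Inhba, Acvr2a and Acvr2b were higher. The antagonist genes Fst, Fstl3 and Wfikkn2 did not pass the test, with unadjusted p-values of 0.339, 0.321 and 0.0214 in limma. In all, 3 of the 8 genes rose and 2 fell at an adjusted p under 0.05 in limma, a linear model across all rows. Over all 23332 rows, 14.4% were called higher and 8.63% lower, 23% in either direction. Higher rows made up 62.5% of these calls, but 46.6% once the arrays were quantile normalized and 41.7% once they were centred on their medians. The median log2 difference was 0.17 over the 8 genes and -0.01 over all rows. Because the genes were picked with results known, nothing is read from their share of calls. The regions did not overlap in 6 of the 8 genes, against 41% of all rows.

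**Figure D1:**
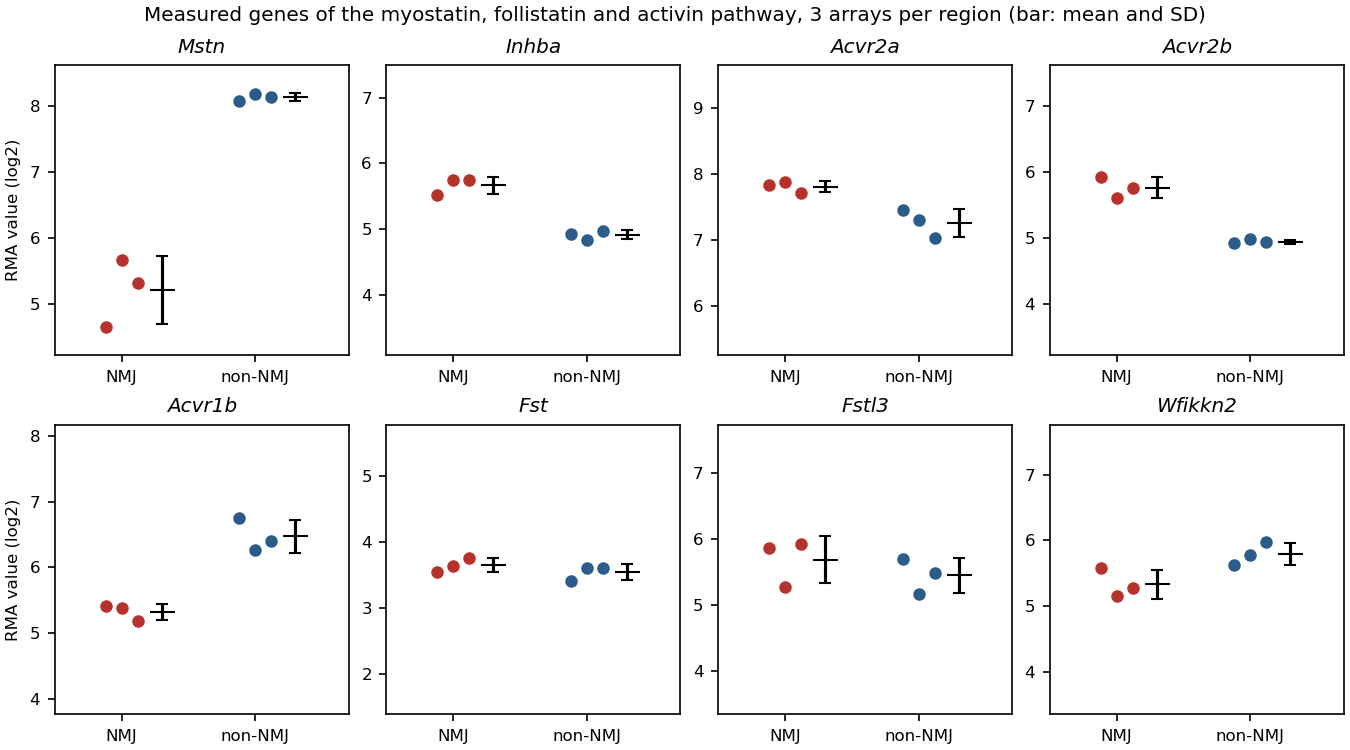
RMA values (log2) of the 8 measured genes on each array, NMJ in red and non-NMJ in blue, with the mean and SD of each region as a black bar. Every panel spans the same number of log2 units; only Mstn leaves a gap of 2.42 between the regions, and Fst and Fstl3 overlap.

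The ligand gene Mstn had RMA values of 4.65, 5.66 and 5.32 on NMJ arrays, against 8.07, 8.19 and 8.14 on non-NMJ arrays. All NMJ arrays lay below all non-NMJ arrays, and the spread was wider at the junctions (SD 0.51) than away from them (SD 0.06, n = 3 each). The log2 difference was -2.92 ± 0.25 (SE), which is 7.58-fold lower in NMJ regions with a 95% interval of 4.97 to 11.6 (limma adjusted p = 6.94e-04). Of the 23332 rows, 10 had a lower difference, and 1.53% were called and at least 2-fold lower. NMJ replicate 1 gave the lowest Mstn value, and without it the log2 difference was -2.64, the smallest in size among the fits that left out 1 array. The NMJ mean of 5.21 stayed above the medians of those arrays (4.491 to 4.53). On NMJ replicate 1, however, the value of 4.65 was near that array's median of 4.516. The level over background is unknown there, so the size of the fall may be understated.

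Transcripts of the fibre itself were also lower, by smaller amounts. Of 8 measured muscle fibre markers, 6 fell and the other 2 were not called, against 8.63% of all rows called lower. When any 1 array was left out, 3 or 4 were called lower. The log2 differences of the 8 markers lay between -0.70 and -0.02, with a median of -0.32. Their mean RMA value was 12.49 to 12.52 on NMJ arrays and 12.84 to 12.87 on non-NMJ arrays. Actn3, a sarcomere gene of fast fibres, fell by 0.70 on the log2 scale, and Mylpf, a fast myosin light chain gene, by 0.55. The Mstn difference was larger in size than that of any marker on this list, though these rows were very bright, where RMA values compress differences. The part of the fibre's share of the captured RNA in the Mstn difference was not tested.

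Inhba, whose product pairs with itself to make activin A, moved the other way. Its RMA values were 5.52, 5.74 and 5.74 on NMJ arrays, against 4.93, 4.84 and 4.97 on non-NMJ arrays. Every NMJ array was higher than every non-NMJ array, by at least 0.55. The log2 difference was 0.75 ± 0.10 (SE), a 1.69-fold increase (95% interval 1.43 to 1.99; limma adjusted p = 0.00336). The call held in each fit that left out 1 array, at adjusted p-values between 0.00975 and 0.0193. Markers of fibroblasts and Schwann cells were higher in the same arrays, beside 14.4% of all rows called higher. Of 11 fibroblast markers 8 rose (median 1.18), with list means of 8.49 to 8.56 on NMJ arrays and 7.12 to 7.33 on non-NMJ arrays. Of 9 Schwann cell markers 8 rose (median 2.08), with list means of 6.59 to 6.72 on NMJ arrays and 4.57 to 4.78 on non-NMJ arrays. The part of these cells in the Inhba difference was not tested.

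Both type II receptor genes rose. Acvr2b had RMA values of 5.93, 5.61 and 5.76 on NMJ arrays, against 4.92, 4.98 and 4.94 on non-NMJ arrays. The non-NMJ values lay within 0.06 of each other, and the nearest NMJ value was 0.63 above them. The log2 difference of 0.82 ± 0.11 (SE) is a 1.77-fold increase (95% interval 1.48 to 2.11; limma adjusted p = 0.00304).

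Acvr2a had RMA values of 7.83, 7.88 and 7.72 on NMJ arrays, against 7.45, 7.31 and 7.03 on non-NMJ arrays. The regions did not overlap, with a gap of 0.27, and the non-NMJ arrays scattered more. The log2 difference was 0.55 ± 0.13 (SE), a 1.46-fold increase (95% interval 1.17 to 1.82; limma adjusted p = 0.0284). This call was lost in 4 of the 6 fits that left out 1 array: the adjusted p became 0.0947, 0.0966 and 0.0603 without NMJ replicates 1, 2 and 3, and 0.0644 without non-NMJ replicate 2. The call was also lost after median centring (log2 difference 0.41, adjusted p = 0.058) and without variance moderation (0.0661).

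Whether the type II receptor genes changed unequally was asked with the within-array gap between their rows. Acvr2a minus Acvr2b was 1.89, 2.26 and 1.97 on NMJ arrays, against 2.53, 2.33 and 2.09 on non-NMJ arrays. The mean gap was 0.27 smaller in NMJ regions, and the regions overlapped (exact 2-sided permutation p = 0.2, 0.4 after adjustment over 2 pairs). With 3 arrays against 3 the smallest p this test can give is 0.1, so a difference in their response was not shown and equality was not shown either.

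Acvr1b, which encodes the activin type I receptor ALK4, fell. Its RMA values were 5.41, 5.38 and 5.19 on NMJ arrays, against 6.75, 6.26 and 6.40 on non-NMJ arrays. All NMJ arrays were lower, with a gap of 0.85 to the nearest non-NMJ array. The log2 difference was -1.14 ± 0.15 (SE), 2.2-fold lower with a 95% interval of 1.71 to 2.83 (limma adjusted p = 0.00324). Of all rows, 312 had a lower difference. Acvr1b was therefore lower in the same arrays in which both type II receptor genes were higher, though the Acvr2a call was not stable, as given above. Other type I receptor genes are described below.

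The antagonist genes gave smaller differences. Fst, which encodes follistatin, had RMA values of 3.55, 3.64 and 3.76 on NMJ arrays, against 3.41, 3.61 and 3.61 on non-NMJ arrays. The regions overlapped, and all 6 values lay below the array medians, where the level over background is unknown. The log2 difference was 0.11 ± 0.10 (SE; limma adjusted p = 0.521). Its 95% interval runs from 0.905-fold to 1.28-fold, so a larger change of the RMA value in either direction is outside it.

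Fstl3, the follistatin relative made by many tissues, had RMA values of 5.87, 5.27 and 5.92 on NMJ arrays, against 5.69, 5.16 and 5.49 on non-NMJ arrays. Replicate 2 was the lowest array in both regions, and the regions overlapped. The log2 difference was 0.24 ± 0.22 (SE; limma adjusted p = 0.504), with a 95% interval of 0.811-fold to 1.72-fold. The sign of the Fst and Fstl3 differences was not stable: Fst was at -0.03 after median centring and Fstl3 at -0.01 after quantile normalization. Fst minus Fstl3 differed by -0.13 between the regions (exact 2-sided permutation p = 0.7, also 0.7 after adjustment over 2 pairs).

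Wfikkn2 encodes GASP1, a secreted multidomain protein that binds myostatin. Its RMA values were 5.58, 5.15 and 5.27 on NMJ arrays, against 5.63, 5.78 and 5.97 on non-NMJ arrays. The NMJ values were all lower, but the nearest values of the regions were 0.05 apart. The log2 difference of -0.46 ± 0.15 (SE) did not pass (limma adjusted p = 0.0784). It did pass after quantile normalization (-0.70, adjusted p = 0.0284), after median centring (-0.60, 0.0328), among rows with 1 symbol (0.038) and without the dimmest 50% of rows (0.0361).

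**Figure D2:**
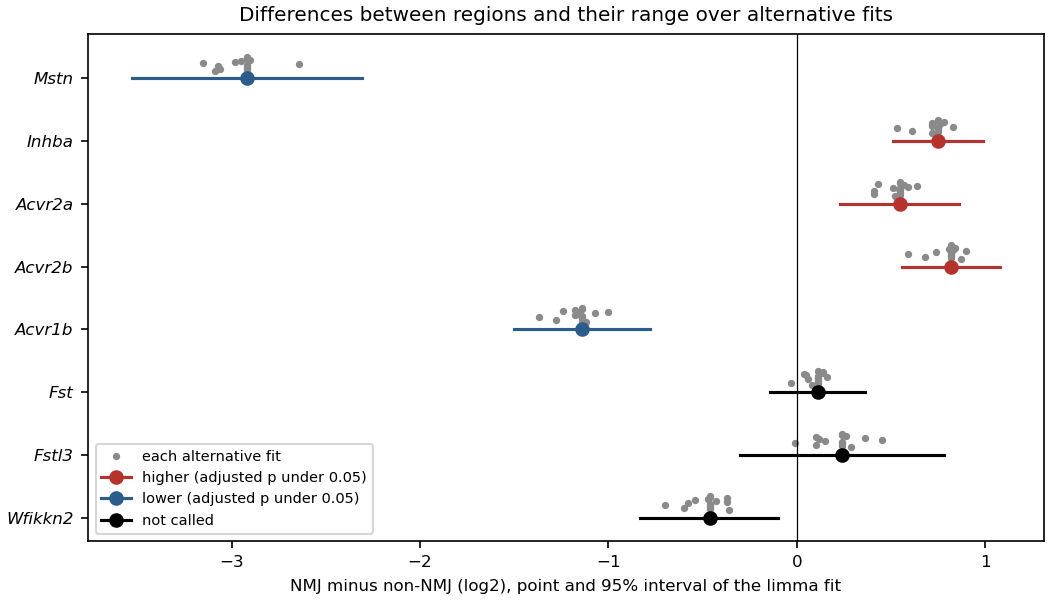
Log2 differences (NMJ minus non-NMJ) of the 8 genes with 95% intervals, red for higher, blue for lower and black for not called; grey points are the alternative fits, 14 for Fst and 15 for each of the others. Mstn (-2.92) and Acvr1b (-1.14) stay left of 0 and Inhba, Acvr2a and Acvr2b stay right of it in every fit shown, while Fst and Fstl3 cross it.

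The rest of the pathway was described from lists of 65 other genes, 55 of which had a row. Of the 55, 19 rose and 8 fell, with a median log2 difference of 0.06, against 14.4% and 8.63% of all rows. These lists were also drawn up with earlier results known. The counts of each list below stand against the same shares of all rows. Of the 27 calls, 17 held in each of the fits that left out 1 array. Where a call below was lost, the largest adjusted p among those fits is given. Without variance moderation 7 calls were also lost, those of Inhbe, Bmpr1a, Bmpr1b, Smad2, Smad9, Smurf2 and Foxo3, at adjusted p-values between 0.0507 (Smurf2) and 0.0751 (Bmpr1a).

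Among other ligands, 2 of 8 rose and 2 fell (median -0.20). Tgfb2, which encodes an isoform of TGF-beta, had RMA values of 7.35, 7.39 and 7.09 on NMJ arrays, against 6.01, 5.87 and 5.47 on non-NMJ arrays. It rose 2.82-fold (log2 difference 1.49 ± 0.17, SE; limma adjusted p = 0.00186). Tgfb3, its relative, went the other way and fell by 0.73 on the log2 scale. Tgfb1 rose by 0.55. Its call was lost without NMJ replicate 2 or 3 or non-NMJ replicate 2 (log2 differences of 0.52 to 0.54, adjusted p up to 0.0649). The call was also lost with the replicate number as a block (adjusted p = 0.0548) and after quantile normalization (log2 difference 0.32, adjusted p = 0.0771). Inhbe, the gene of another activin subunit, fell by 0.41 from a dim level, and this call survived only the omission of non-NMJ replicate 3 (adjusted p up to 0.126) and was lost with the block (0.0869) and without variance moderation (0.0511). Inha, the inhibin alpha subunit gene, was at -0.41 and Nodal at -0.21, without passing.

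Of the 5 measured protease genes that release ligands from their latent forms, 1 rose. Bmp1, a metalloprotease that frees myostatin from its propeptide, had RMA values of 6.22, 6.17 and 6.16 on NMJ arrays, against 5.53, 5.50 and 5.24 on non-NMJ arrays. The regions were well apart, and Bmp1 rose by 0.76 ± 0.10 (SE) on the log2 scale (limma adjusted p = 0.00412). Furin, the convertase that cuts the precursors, was at 0.12 (adjusted p = 0.348; at -0.05 after quantile normalization). The tolloid genes Tll1 and Tll2 were dim, at 0.12 (-0.02 after median centring) and -0.09.

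Of 9 other binders and inhibitors, 3 rose and 6 were not called (median 0.03). Dcn, the matrix proteoglycan decorin that binds TGF-beta and myostatin, rose 3.05-fold, and Fstl1, a secreted glycoprotein with a follistatin-like domain, rose 2.95-fold. Ltbp4, which tethers latent TGF-beta to the matrix, rose 1.65-fold. Dcn is also a fibroblast marker, and the fibroblast list rose in the same arrays as given above. The part of fibroblasts in these increases was not tested. Bambi, a decoy receptor gene, was at -0.97 ± 0.28 (SE) and did not pass (limma adjusted p = 0.0546). It passed in 7 of the 14 alternative fits that tested its row, with adjusted p-values between 0.0228 and 0.0496.

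**Figure D3:**
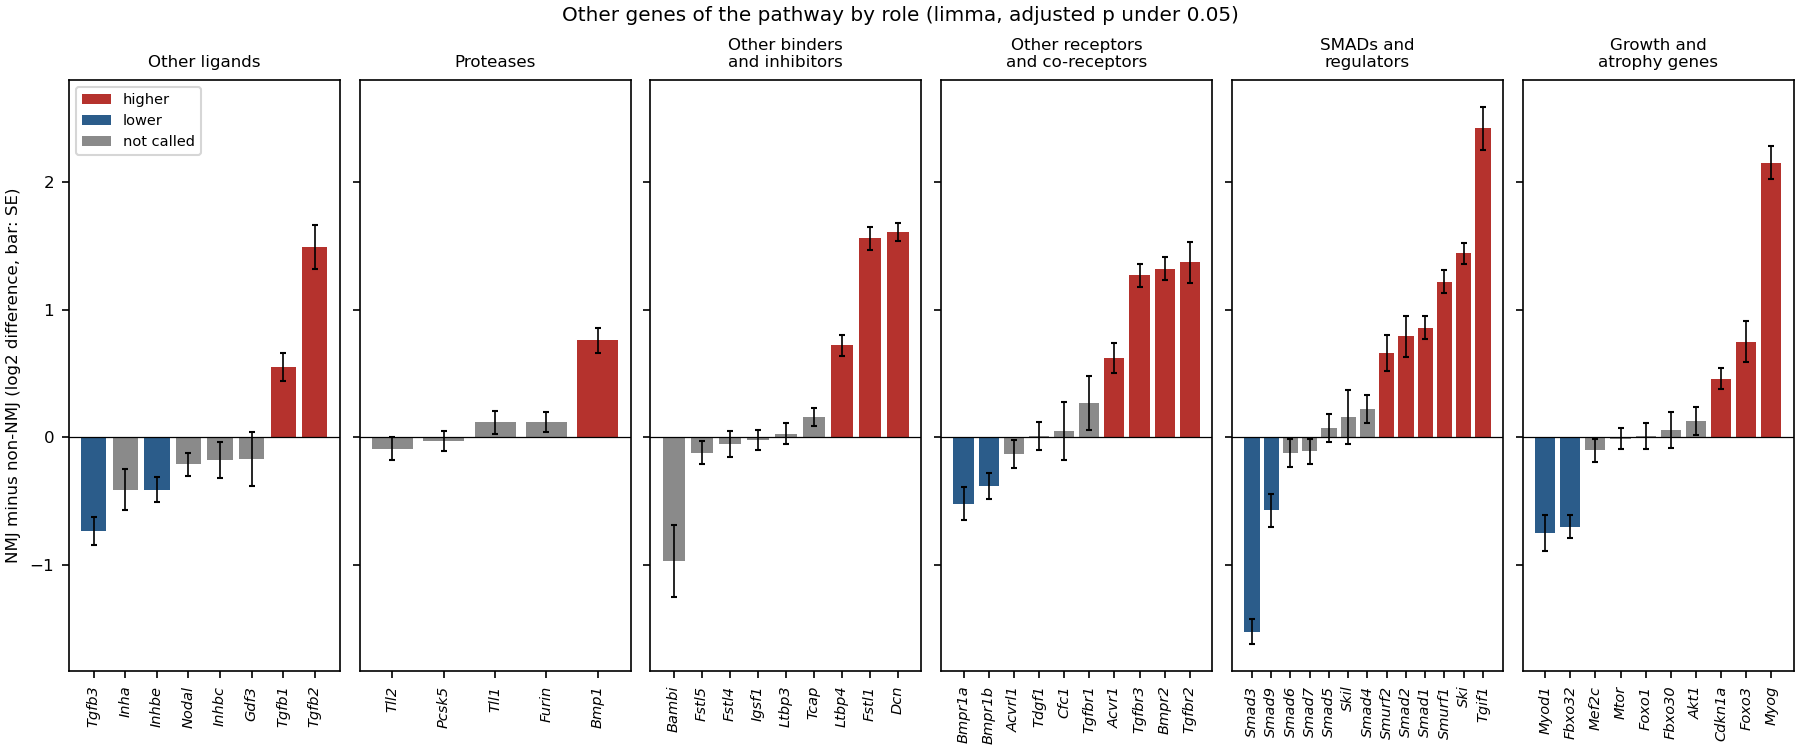
Log2 differences (NMJ minus non-NMJ, bars with SE) of the 55 other pathway genes by role; red bars were called higher, blue bars lower and grey bars were not called. The SMAD panel holds both extremes, Tgif1 at 2.42 and Smad3 at -1.52.

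Of 10 other receptors and co-receptors, 4 rose and 2 fell (median 0.16). Bmpr2, a type II receptor of the BMP branch, had RMA values of 10.58, 10.60 and 10.54 on NMJ arrays, against 9.32, 9.29 and 9.14 on non-NMJ arrays. It rose 2.5-fold (limma adjusted p = 2.48e-04). Tgfbr2, the type II receptor gene for TGF-beta, rose 2.58-fold, and Tgfbr3, the co-receptor betaglycan that presents TGF-beta and inhibin, rose 2.42-fold.

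The type I receptor genes were mixed. Acvr1 rose by 0.62 on the log2 scale, a call lost without NMJ replicate 1 (log2 difference 0.56, adjusted p = 0.0508). Bmpr1a and Bmpr1b fell by 0.52 and 0.38. The Bmpr1a call held only without non-NMJ replicate 3 (adjusted p up to 0.101) and the Bmpr1b call in none of the 6 omissions (0.0636 to 0.139), nor with array weights (0.0689). Tgfbr1 was at 0.27 and Acvrl1 at -0.13, without passing. Acvr1b, at -1.14, had the lowest difference of the 6 measured type I receptor genes on these lists.

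Of 13 measured SMAD genes and regulators, 6 rose and 2 fell (median 0.22). Smad3, which encodes an effector of myostatin, activin and TGF-beta signals, had RMA values of 6.70, 6.71 and 6.56 on NMJ arrays, against 8.27, 8.07 and 8.18 on non-NMJ arrays. All NMJ arrays were lower by more than 1 log2 unit, and the gene fell 2.86-fold (log2 difference -1.52 ± 0.10, SE; limma adjusted p = 2.18e-04). Smad2, its close relative, had a difference of the other sign, 0.79 ± 0.16 (SE; limma adjusted p = 0.018), which was lost without NMJ replicate 1 or 2 (0.0651 and 0.0665). Smad4, the common partner, was at 0.22 and did not pass, and the inhibitory Smad6 and Smad7 were at -0.12 and -0.11.

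Tgif1, a homeodomain corepressor of SMAD2 and SMAD3, had the largest increase of the 55 genes, with RMA values of 7.32, 7.08 and 7.01 on NMJ arrays, against 4.68, 4.45 and 5.03 on non-NMJ arrays. That is 5.35-fold higher (log2 difference 2.42 ± 0.17, SE; limma adjusted p = 3.50e-04). Ski, another SMAD corepressor, rose 2.72-fold, with RMA values of 7.51, 7.64 and 7.56 on NMJ arrays, against 6.06, 6.14 and 6.18 on non-NMJ arrays. Its relative Skil was at 0.16 and did not pass. Smurf1, a ubiquitin ligase gene of SMADs and receptors, rose 2.33-fold, and Smurf2 rose 1.58-fold. The Smurf2 call was lost without NMJ replicate 1 or 2 (log2 differences 0.63 and 0.59, adjusted p = 0.0687 and 0.0656). Smad1 of the BMP branch rose 1.82-fold. Smad9 of that branch fell by 0.57 from a dim level, a call lost in 4 of the 6 omissions (adjusted p up to 0.0668).

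Of 10 measured genes of growth and atrophy downstream of the pathway, 3 rose and 2 fell (median 0.03). Myog, a myogenic factor, rose 4.43-fold, with RMA values of 7.27, 7.50 and 7.44 on NMJ arrays, against 5.43, 5.28 and 5.06 on non-NMJ arrays. Myod1, the related factor, fell by 0.75 on the log2 scale. Fbxo32, the ubiquitin ligase gene known as atrogin-1 that rises in muscle wasting, fell by 0.70, with RMA values of 9.74, 9.75 and 9.64 on NMJ arrays, against 10.49, 10.44 and 10.29 on non-NMJ arrays. Cdkn1a, the cell cycle inhibitor p21, rose by 0.46. This call was lost without NMJ replicate 1 (log2 difference 0.43, adjusted p = 0.0536) and after quantile normalization (log2 difference 0.26, adjusted p = 0.14). Foxo3, a regulator of atrophy genes, rose by 0.75, a call lost in 4 of the 6 omissions (adjusted p up to 0.0631) and after quantile normalization (log2 difference 0.49, adjusted p = 0.148). Akt1, Mtor, Foxo1, Mef2c and Fbxo30 did not pass, with log2 differences between -0.10 and 0.13.

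The rows nearest to Mstn were sought among all rows with 1 symbol, by the Euclidean distance between values centred on each row's mean over the 6 arrays. They were Mettl21e, a muscle methyltransferase gene (distance 0.75), Car3, a carbonic anhydrase gene (0.81), Map2k6, a MAP kinase kinase gene (0.84), Amy1, an amylase gene (0.90), and Npr3, the natriuretic peptide clearance receptor gene (1.00). Each had 3 low NMJ arrays and 3 high non-NMJ arrays. The distances from Mstn came in part from NMJ replicate 1, where Mstn lay below all 5. Map2k6, for example, had RMA values of 5.15, 5.54 and 5.20 on NMJ arrays, against 7.65, 7.82 and 7.58 on non-NMJ arrays. The rows nearest to Acvr2b, the measured gene of the family with the largest increase, were Nsg1, Serpinb8, Rhbdd2, Ptpre and Gmds, at distances of 0.14 to 0.19. With 6 arrays in 2 regions these distances reflect mainly the size of the regional difference.

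**Figure D4:**
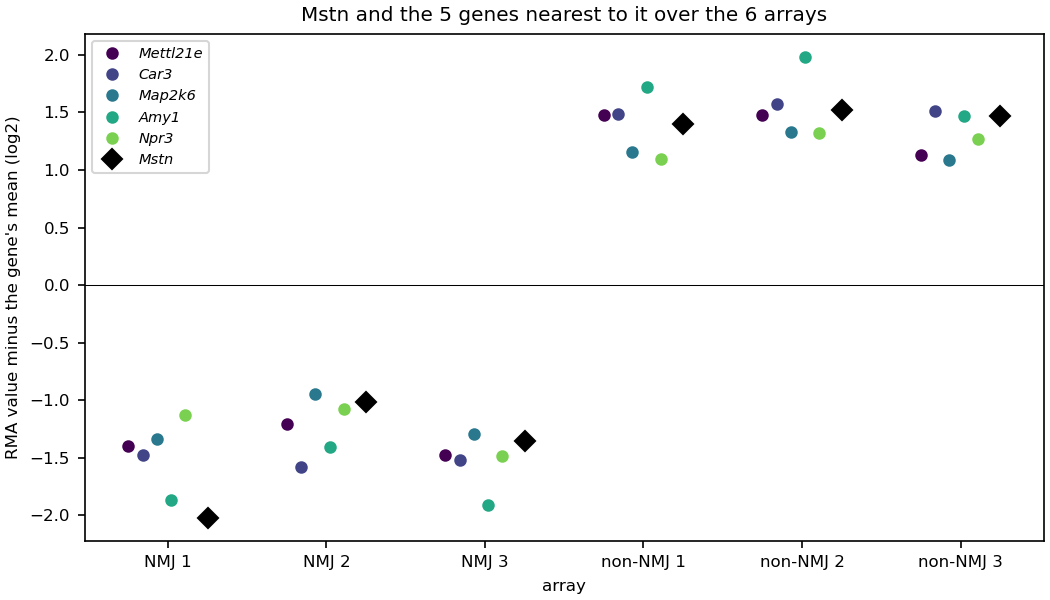
RMA values minus each gene's mean (log2) on the 6 arrays for Mstn (black diamonds) and the 5 nearest rows (coloured points). All 6 genes are low on the NMJ arrays and high on the non-NMJ arrays, and Mstn is lowest on NMJ replicate 1.

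All 10 junction markers rose in NMJ regions, with a median log2 difference of 4.88. This list was drawn up with earlier results of these data known, so it is no independent check of the labels. Ache, which the stain follows, rose by 5.57, Etv5, a transcription factor of synaptic nuclei, by 5.72 and Prkar1a, a protein kinase A subunit gene, by 4.19. Of 10 markers of the motor axon and terminal, 1 fell (Uchl1, a call lost without NMJ replicate 1, 2 or 3) and 9 were not called. Their mean RMA value was 3.15 to 3.25 on NMJ arrays and 3.42 to 3.45 on non-NMJ arrays, below the array medians. Of 10 endothelial markers 6 fell and 4 were not called (median -0.36). Only 2 were called lower without any 1 of NMJ replicates 1 to 3 or non-NMJ replicates 1 and 2. Of 9 mural cell markers 1 rose and 5 fell (median -0.39). Macrophage and leukocyte markers had 3 rises and 1 fall among 9, counts that moved to between 1 and 4 rises and 0 falls when 1 array was left out. Satellite cell markers had 2 rises among 8, adipocyte markers had 1 fall among 5, and the 4 tendon markers lay between -0.58 and 0.22 without a call. Over all rows, 14.4% were called higher and 8.63% lower, and nothing is read from counts near these shares. The part of these cell types in the results above was not tested. Pearson correlations between arrays were 0.988 to 0.990 within NMJ, 0.980 to 0.983 within non-NMJ and 0.953 to 0.961 between the regions.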

How the data were processed

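Total RNA from laser-captured NMJ and non-NMJ regions (10 ng a sample) was amplified, labelled and hybridised to exon arrays, 1 array per sample, per the labels' protocols. The deposited values are gene-level log2 values that the authors made with RMA in Affymetrix Expression Console, with Transcriptome Analysis Console, per the submitters' processing notes. Program versions, settings and the genome build were not given in the sources used here. Their log2 scale is inferred from the values, with a range of 0.87 to 13.971. RMA understates differences at both ends of the intensity range, detection calls were not used, and precision is limited by the 6 arrays.

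Groups and replicate numbers came from the sample titles. Of 23332 rows, the platform's gene table named 14996 with 1 symbol and 1019 with several, and 7317 were unnamed. Of those with 1 symbol, 14941 matched RefSeq (GRCm38.p6) by gene identifier. RefSeq was used for names and for promoter windows, which 7 of the 8 measured genes had.

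Differences (NMJ minus non-NMJ) were fitted with limma 3.58.1 in R 4.3.3 (lmFit, eBayes, 2-sided) over all rows, with Benjamini-Hochberg adjustment over all rows and a threshold of 0.05. Pairs of related genes were compared by exact permutation in scipy 1.17.1; 4 pairs were planned and 2 could be computed, since Gdf11 and Inhbb had no row. The limma step was also run on independent rows simulated from its own variance model. Such a run checks the code and cannot test for shared mice or unequal array medians. The members, gene lists and tests were chosen with earlier results of these data known. Named were all members, up to 4 genes per pathway list and 3 per marker list by smallest p, and the 5 nearest rows to Mstn and Acvr2b. Further list genes were named after their values were seen.

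Same-numbered arrays had deviations from their region means that correlated at 0.0468, 0.0355 and 0.184. Arrays of different numbers gave -0.15 to 0.111, and with so few arrays these values do not settle whether the numbers pair them. The labels do not state a pairing, so none was assumed and the replicate block was an alternative fit. The differences of the measured members, of the pathway genes named by rule and of all called pathway genes, and the counts of calls, were recomputed with a replicate block, after median centring or quantile normalization, without dim rows or rows lacking 1 symbol, with array weights, with other variance settings, at a threshold of 0.01 and with each array left out; the pairs were recomputed only after quantile normalization.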

Additional observations from a re-analysis of the deposited data

How the results depend on the processing

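Mstn, Inhba, Acvr2b and Acvr1b kept their direction and their call in all 15 alternative fits. Among the fits that left out 1 array, the log2 difference ranged from -3.15 to -2.64 for Mstn, 0.72 to 0.83 for Inhba, 0.74 to 0.90 for Acvr2b and -1.24 to -1.0 for Acvr1b. Of the 8 genes, 2 or 3 were then called higher and 2 lower. With the replicate number as a block the counts were 3 and 2 for these genes, 18 and 7 for the other pathway genes and 3209 and 1855 for all rows. Among the 5 called members and 27 called pathway genes, the block ended only the calls of Tgfb1 and Inhbe. Median centring shifts every difference by -0.14 and the median of all rows from -0.01 to -0.15. Positive differences smaller than that shift therefore turn, also in list genes not recomputed singly, such as Foxo1 (0.01) and Fbxo30 (0.06). Among the recomputed differences, the signs of Fst (-0.03), Furin (-0.02) and Tll1 (-0.02) turned after median centring. After quantile normalization those of Fstl3 (-0.01), Furin (-0.05) and the Fst minus Fstl3 difference (0.07) turned. None of these was called. The cause was not tested.

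The count of lower pathway genes, 8 as reported, was 4 without variance moderation, 11 after median centring, 12 after quantile normalization, 4 to 6 when 1 array was left out and 3 at a threshold of 0.01. Over all rows, 3351 were higher and 2013 lower. Lower rows numbered 3690 after median centring and 3294 after quantile normalization, which moved the share of higher calls from 62.5% to 41.7% and 46.6%. At 0.01, 1891 rows were higher and 885 lower, and omission of 1 array left 2220 to 2879 higher and 1133 to 1888 lower. The lowest count of higher rows came without NMJ replicate 2, and of lower rows without NMJ replicate 1. None of the 8 members had a second row, so that alternative gave no value for them. Fst, Tll1, Tll2, Inhbe, Nodal, Smad9 and Bambi lie below or near the array medians, where signal over background is unknown.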
